A study of Mus musculus with 8 samples.

Results

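The genes described here were the aquaporins, the water channels of cell membranes, and the receptor through which vasopressin acts on Aqp2 in the collecting duct of the kidney. Members were taken as every probe set whose single gene symbol in the array annotation was Aqp1, Aqp2, Aqp3, Aqp4, Aqp5, Aqp6, Aqp7, Aqp8, Aqp11 or Avpr2. These were 10 of 18194 named genes and 21 of the 34958 probe sets with 1 gene. Signals were measured in RNA of whole embryonic kidneys on Affymetrix oligonucleotide arrays of the mouse genome, for 4 pools with 2 arrays each. The E14.5 Lim1 mutant pool (Lim1flox/lacZ; Rarb2-Cre tg/+) held kidneys of 17 embryos at embryonic day 14.5, and the E14.5 control pool (Lim1flox/+; Rarb2-Cre tg/+) held kidneys of 23 embryos of that age. The E18.5 Lim1 mutant pool held kidneys of 9 embryos at embryonic day 18.5 and the E18.5 control pool kidneys of 14, with the same genotypes. All embryos were of mixed 129, C57BL/6 and SJL/J background and of both sexes.

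Lim1, also named Lhx1, encodes a LIM homeodomain transcription factor. Controls carried Cre and a floxed allele too, so the genotypes differed in the other allele, which was the lacZ null allele in mutants and wild type in controls. The Rarb2-Cre transgene acts in the metanephric mesenchyme, the tissue that forms nephrons, and not in the ureteric bud, from which the collecting duct grows. Cells outside the reach of Cre therefore kept a floxed allele in mutants, beside the null one. Duplicate arrays came from separate target preparations of 1 RNA, so their spread is technical, and each condition had 1 biological replicate. No test between conditions could be made and no p-value was computed. Array medians ranged from 225 to 243 signal units, the number of arrays limits the precision, and duplicates of the E18.5 mutant pool were farthest apart, by a median 1.16-fold against 1.08-fold to 1.11-fold in the other pools. In these pools of whole kidney, fewer cells of a type and less RNA per cell cannot be told apart. Neither probe set of Lhx1 was lower in mutants at both stages, with log2 ratios of mutant over control of 0.21 and -0.20 at E18.5 and of -0.30 and 0.21 at E14.5, and since the place of these probes relative to the deleted part was not known, they check nothing about the genotypes.

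Most water filtered in the kidney returns to the blood through Aqp1, which sits in the proximal tubule and the descending thin limb of the nephron and is also found in capillary endothelium and red blood cells. Aqp7, Aqp8 and Aqp11 are further forms reported in proximal tubule cells. The last water is recovered in the collecting duct. There vasopressin binds the V2 receptor Avpr2 on principal cells, cyclic AMP rises, protein kinase A is activated, and Aqp2 moves from vesicles to the apical membrane, while Aqp3 and Aqp4 let the water out through the basolateral membrane. Aqp6 lies in vesicles of intercalated cells, the acid and base secreting cells of the duct, and Aqp5 is known mainly from salivary, tear and airway glands.

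The promoters of the 3 members that met the criteria of change in all comparisons in which any member met them are shown. Aqp1 is a channel of the nephron, and Aqp2 and Aqp3 are channels of the collecting duct. In E18.5 mutants against controls and in mutants between the ages, Aqp3 met the criteria only through probe sets other than its brightest. Each promoter is the 250 bases before the transcription start, from RefSeq on build GRCm38.p6. Aqp1 is from chr6:55336049-55336298 (plus strand), Aqp2 from chr15:99578806-99579055 (plus strand) and Aqp3 from chr4:41098184-41098433 (minus strand). Capitals mark, in this order in Aqp2, a reverse complement match to TGACG, the core of the cyclic AMP response element, and one to the GATA factor motif AGATAA.
Aqp1: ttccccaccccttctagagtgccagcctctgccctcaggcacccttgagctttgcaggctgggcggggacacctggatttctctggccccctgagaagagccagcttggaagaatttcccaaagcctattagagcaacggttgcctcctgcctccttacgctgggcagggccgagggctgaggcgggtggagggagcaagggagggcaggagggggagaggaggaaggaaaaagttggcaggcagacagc
Aqp2: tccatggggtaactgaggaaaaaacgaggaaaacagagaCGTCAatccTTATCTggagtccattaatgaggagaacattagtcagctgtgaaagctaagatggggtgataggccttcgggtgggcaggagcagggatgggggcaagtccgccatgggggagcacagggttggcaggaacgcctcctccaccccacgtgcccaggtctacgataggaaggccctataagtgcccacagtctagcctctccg
Aqp3: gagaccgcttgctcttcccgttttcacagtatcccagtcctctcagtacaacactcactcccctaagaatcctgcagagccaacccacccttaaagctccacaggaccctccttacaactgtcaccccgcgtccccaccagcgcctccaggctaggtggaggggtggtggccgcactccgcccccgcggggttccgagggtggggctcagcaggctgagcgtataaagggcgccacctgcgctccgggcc

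Of the 10 members, 9 had a promoter in the RefSeq table. Letters were searched on both strands. TGACG occurred in 17.8% of all 32851 promoter windows of this length and among members in Aqp2 only, at -211 to -207 from the start. It lies within the full element TGACGTCA, which was found in 1.55% of windows and in no member. AGATAA occurred in 9.99% of windows and among members in Aqp2, at -202 to -197, and in 1 of the 2 windows of Aqp7. GTTAAT, the core of the hepatocyte nuclear factor 1 motif, occurred in 6.43% of windows and in no member, and the E-box CANNTG in 66.2% of windows and in every member with a promoter. These are descriptions of letters in the windows. In the genome Aqp2, Aqp5 and Aqp6 are neighbours on chromosome 15, with gaps of 6482 and 3638 bp, and Aqp7 and Aqp3 are 44486 bp apart on chromosome 4. Genes that met the criteria of change and genes that did not thus lie side by side. Low signals of Aqp5, Aqp7 and most probe sets of Aqp6 limited what could be seen of them.

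A gene was called higher or lower in a comparison when any of its probe sets met 4 criteria of size: a ratio of at least 2 between the means of duplicate arrays, a ratio larger than the duplicates of each condition differed by, a product of the higher mean and the ratio above 100, and a signal at or above the minimum, the 40th percentile of the array (177 to 193 units), on both arrays of the higher condition. The range given with a ratio is the lowest and highest over the 4 pairings of single arrays. Ratios are mutant over control or E18.5 over E14.5, and folds lower are given as control over mutant. Genotype and stage comparisons share pools, so they are not independent of each other.

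At E18.5 the water channels Aqp1, Aqp2, Aqp3 and Aqp4 were lower in mutant than in control kidneys, and no member was higher. Among all named genes 2.23% were called lower and 0.165% higher, and among members 4 of 10 were called lower through 5 of 21 probe sets. Aqp1 had signals of 375 and 440 in E18.5 mutants and 2001 and 2091 in E18.5 controls. All mutant arrays were far under the control arrays, and the mutant mean was 5.02-fold lower (4.55 to 5.58). Aqp2 had signals of 281 and 296 in mutants and 2659 and 2632 in controls. Again the arrays did not overlap, and the fold lower was 9.16 (8.88 to 9.46), a mutant mean of 10.9% of the control mean, against 19.9% for Aqp1. The fold ranges of Aqp2 and Aqp1 did not overlap, and among the log2 ratios of all 45101 probe sets in this comparison Aqp2 stood at rank 86 from the lowest and Aqp1 at rank 141.

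Aqp3, the glycerol and water channel of the basolateral membrane, was read by 4 probe sets that did not give 1 answer. Probe set 1450460_at had signals of 202 and 222 in E18.5 mutants and 678 and 648 in E18.5 controls, 3.13-fold lower (2.92 to 3.35). Probe set 1422008_a_at had 147 and 207 in mutants and 619 and 636 in controls, 3.55-fold lower (2.996 to 4.32). The brightest, 1422007_at, had 529 and 534 in mutants and 911 and 976 in controls. It was lower in mutants on every array, but its 1.78-fold difference (1.71 to 1.85) was under the ratio of 2, so Aqp3 was called through the other probe sets alone. The remaining one, 1447727_at, had a log2 ratio of 0.24 (0.06 to 0.42).

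Aqp4, a water channel of the same membrane that is abundant also in brain astrocytes, was called through 1 of 3 probe sets. Probe set 1434449_at had signals of 137 and 193 in E18.5 mutants and 407 and 388 in E18.5 controls, 2.40-fold lower (2.01 to 2.96). Its mutant duplicates were far apart, and the lower of them was under the minimum signal. The brightest probe set, 1447745_at, had 316 and 311 in mutants and 268 and 285 in controls, a log2 ratio of 0.18 (0.13 to 0.24), and 1425382_a_at had a log2 ratio of -0.06 (-0.40 to 0.25). Which of these probe sets reads the kidney transcript was not tested.

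The signal of the single receptor probe set did not follow the channels. Avpr2 had signals of 330 and 268 in E18.5 mutants and 322 and 317 in E18.5 controls, with overlapping arrays and a log2 ratio of -0.10 (-0.26 to 0.06). Its signal was at or above the minimum on all 8 arrays, but it varied by only 1.23-fold over them and lay near the array medians of 225 to 243. Whether this probe set reads the kidney transcript was not tested. Principal cells hold both Aqp2 and Avpr2, and the range of Avpr2 lies apart from the log2 ratio of -3.20 (-3.24 to -3.15) of Aqp2. Whether other cells of the kidney add to the Avpr2 signal was not tested, so this is no comparison within 1 cell type.

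Among collecting duct members, Aqp6 was not called. Probe set 1441978_at had signals of 45.4 and 41.9 in E18.5 mutants and 137 and 134 in E18.5 controls, 3.10-fold lower (2.95 to 3.27), with no overlap, but it was under the minimum signal on all 8 arrays. The brightest probe set of Aqp6, 1447974_s_at, had a log2 ratio of 0.07 (-0.33 to 0.41), and the other two, 1420035_at and 1459982_a_at, had 0.19 (-0.12 to 0.48) and -0.33 (-0.44 to -0.21).

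The other nephron forms were not called. Aqp11, an intracellular form whose loss gives cystic kidneys in mice, had log2 ratios of -0.37 (-0.59 to -0.17), -0.05 (-0.23 to 0.10) and 0.08 (-0.19 to 0.32) for its 3 probe sets. Aqp7, an aquaglyceroporin, had -0.18 (-0.34 to -0.02) for its brighter probe set, 1418848_at, and -0.49 (-0.85 to -0.18) for 1418849_x_at, whose signals of 9.34 to 20.9 were far under the minimum. Aqp8 had 0.10 (-0.12 to 0.30) and was under the minimum on all arrays. Probe set 1418848_at of Aqp7 was at 165 on both arrays of E18.5 controls, under the minimum there. Neither Aqp7 nor Aqp8 could therefore be called lower in E18.5 mutants. Aqp5, the gland form, had 0.19 (0.13 to 0.24), near the minimum signal on all arrays at 156 to 204 units.

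**Figure D1:**
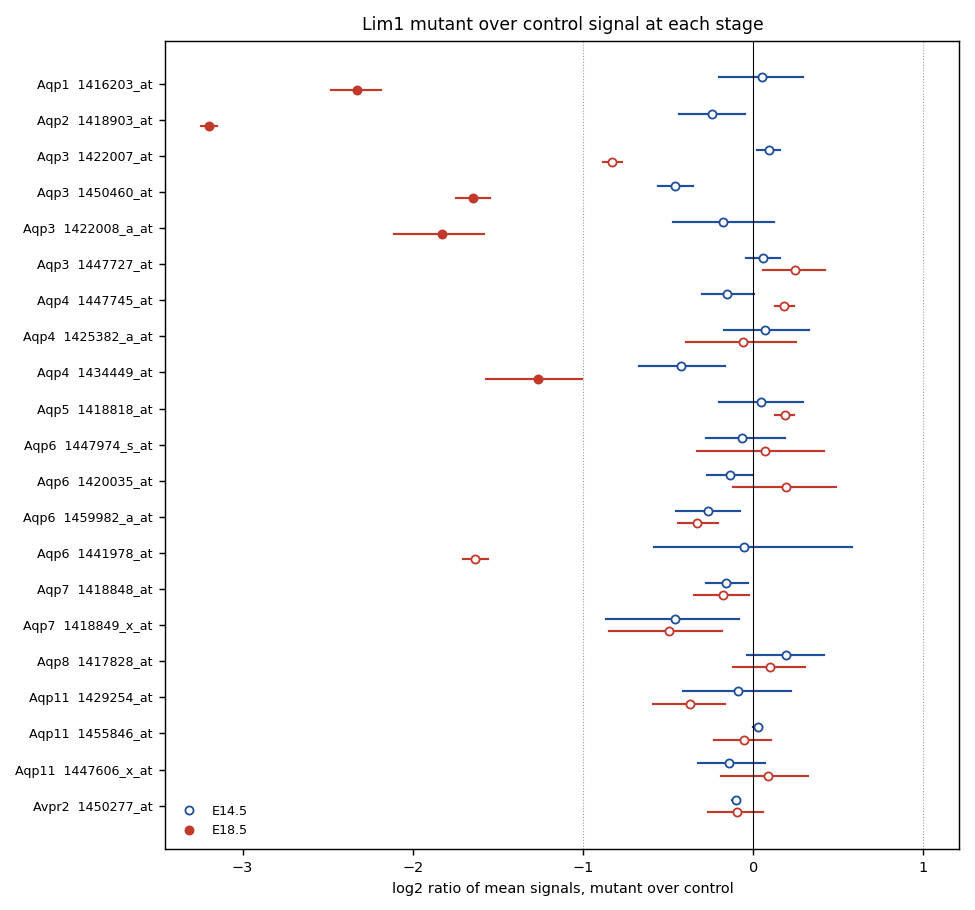
Log2 ratio of mean signals, Lim1 mutant over control, for each member probe set at E14.5 (blue) and E18.5 (red); bars span the 4 pairings of single arrays, filled points met the criteria and dotted lines mark a ratio of 2 either way. At E18.5 Aqp2 lies at -3.20 and Aqp1 at -2.33, and no point is filled at E14.5.

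At E14.5 no member was called in either direction, where 0.121% of all named genes were called lower and 0.0055% higher in mutants. Aqp1 had signals of 127 and 158 in E14.5 mutants and 146 and 129 in E14.5 controls, with overlapping arrays and a log2 ratio of 0.05 (-0.20 to 0.29). Aqp2 had 143 and 125 in mutants and 168 and 147 in controls, a log2 ratio of -0.24 (-0.44 to -0.05). Both genes were under the minimum signal on all 4 arrays of this age, so a difference between genotypes was hardly measurable there. Of the probe sets of Aqp3 and Aqp4 that were lower at E18.5, 1450460_at had a log2 ratio of -0.46 (-0.56 to -0.35), 1422008_a_at of -0.17 (-0.47 to 0.12) and 1434449_at of -0.42 (-0.67 to -0.17). All 3 were under the minimum signal on the 4 arrays of this age. Avpr2 had 298 and 292 in mutants and 315 and 318 in controls, a log2 ratio of -0.10 (-0.12 to -0.08).

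In control kidneys Aqp1, Aqp2, Aqp3 and Aqp4 were higher at E18.5 than at E14.5. From the E14.5 to the E18.5 pool 4.75% of all named genes were called higher and 2.94% lower, and among members 4 of 10 were called higher, through 6 probe sets, and 0 lower. Aqp2 at E18.5 was 16.8 times its E14.5 level (15.6 to 18.0) and Aqp1 14.9 times (13.7 to 16.2), and these 2 ranges overlap. Aqp3 was higher by 2.42 (2.34 to 2.51), 4.87 (4.47 to 5.31) and 15.0 times (13.4 to 17.0) for 1422007_at, 1450460_at and 1422008_a_at, and Aqp4 by 5.97 times (5.32 to 6.76) for 1434449_at. Except for 1422007_at, these higher ratios were taken against E14.5 signals under the minimum. The brightest probe set of Aqp4, 1447745_at, had a ratio of 0.96 (0.85 to 1.10) and 1425382_a_at of 1.15 (0.95 to 1.40), so the call of Aqp4 rests on 1 of 3 probe sets and is lost on the brightest. The remaining probe set of Aqp3, 1447727_at, had a ratio of 0.91 (0.85 to 0.98). The low probe set of Aqp6, 1441978_at, had a ratio of 2.32 (1.79 to 3.25) and was not called, and Avpr2 had 322 and 317 at E18.5 and 315 and 318 at E14.5, a log2 ratio of 0.01 (-0.01 to 0.03).

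In mutant kidneys 3 members were higher at E18.5 than at E14.5. From the E14.5 to the E18.5 pool 1.35% of all named genes were called higher and 1.49% lower, and Aqp1, Aqp2 and Aqp3 were higher with 0 members lower. Aqp1 reached 2.86 times (2.37 to 3.47) and Aqp2 2.16 times (1.97 to 2.38) its E14.5 level. The call of Aqp2 is close to the ratio of 2. Aqp3 was called through 1450460_at, at 2.14 times (2.02 to 2.25). Ratios of 4.77 (3.61 to 6.18) for 1422008_a_at of Aqp3 and 3.33 (2.56 to 4.23) for 1434449_at of Aqp4 were not called, since array 1 of the E18.5 mutant pool was under the minimum for both. Without that array 4 members were called, Aqp4 among them, and with 50 units added to each signal Aqp1 alone was called.

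The log2 change with age in mutants minus that in controls was -2.95 for Aqp2, with a range of -3.19 to -2.72 over the 16 choices of 1 array per pool, so it rose less in mutants. For Aqp1 the difference was -2.38 (-2.77 to -1.99). For 1422007_at, 1450460_at and 1422008_a_at of Aqp3 it was -0.92 (-1.04 to -0.79), -1.19 (-1.39 to -0.99) and -1.65 (-2.24 to -1.11), and for 1447727_at it was 0.19 (-0.10 to 0.47). The probe sets of Aqp4 differed in sign, with -0.84 (-1.40 to -0.33) for 1434449_at, 0.34 (0.12 to 0.54) for the brightest, 1447745_at, and -0.13 (-0.73 to 0.42) for 1425382_a_at. For Avpr2 it was 0.01 (-0.18 to 0.18). Without replicate pools these ranges hold technical spread only.

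**Figure D2:**
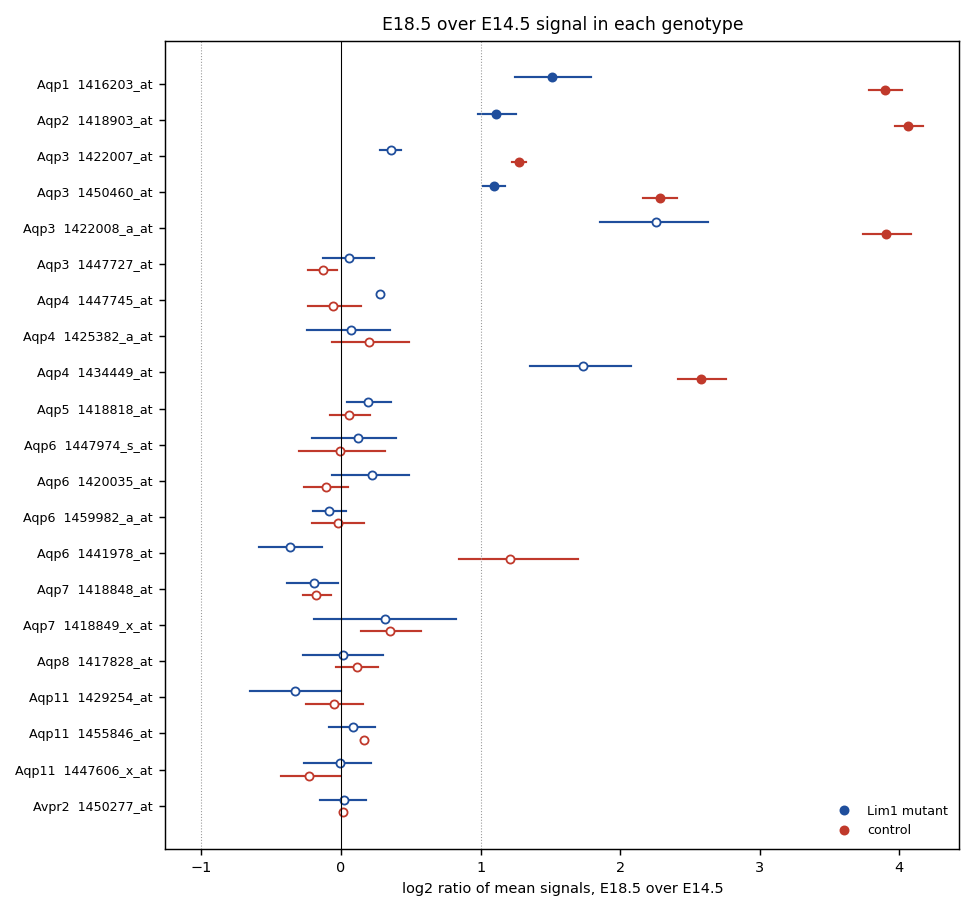
Log2 ratio of mean signals, E18.5 over E14.5, for each member probe set in Lim1 mutants (blue) and controls (red); bars span the 4 pairings of single arrays, filled points met the criteria and dotted lines mark a ratio of 2 either way. Aqp2 lies at 1.11 in mutants and 4.07 in controls, Aqp1 at 1.51 and 3.90, and Avpr2 at 0.02 and 0.01.

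Aqp1 and Aqp2 were highest in E18.5 controls, then in E18.5 mutants, then in the 2 E14.5 pools. All E14.5 signals of both genes were under the minimum, so no order of the E14.5 mutant and E14.5 control pools is set. Avpr2 spanned 268 to 330 units over all 8 arrays. Its E18.5 mutant duplicates were the lowest and the highest of the 8, so no order of its pools is set.

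Both the nephron and the collecting duct forms held genes that were called and genes that were not. Of the 4 nephron forms (Aqp1, Aqp7, Aqp8, Aqp11), 1 was lower in E18.5 mutants, and the median log2 ratio over their brightest probe sets was -0.27 (range -2.33 to 0.10). Aqp7 and Aqp8 could not be called lower, since they were under the minimum in E18.5 controls, so the counts of the groups are not comparable. Of the 5 collecting duct genes (Aqp2, Aqp3, Aqp4, Aqp6, Avpr2), 3 were lower, and the median was -0.10 (range -3.20 to 0.18). Over all named genes 2.23% were called lower and the median was 0.03. The median of the collecting duct genes rests on the choice of probe set, since it is -0.42 with the mean over the probe sets of each gene, and on the mutant arrays, since it is -0.25 when array 1 of E18.5 mutants is left out and 0.05 when array 2 is. The median of the nephron forms is -0.43 when array 1 is left out and -0.13 when array 2 is. At E14.5 the medians of mutant over control were -0.02 for nephron forms, -0.10 for collecting duct genes and 0.01 for all named genes. Summed signal of the nephron forms was 963 to 1017 in E18.5 mutants and 2709 to 2750 in E18.5 controls, and that of the collecting duct genes was 1770 to 1996 in mutants and 4613 to 4615 in controls. Most of each difference came from 1 gene. Aqp1 held 375 to 440 of the nephron sum in mutants and 2001 to 2091 in controls. Aqp2 held 281 to 296 of the collecting duct sum in mutants and 2632 to 2659 in controls.

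Markers of the cells that hold these channels were read beside them. In E18.5 mutants against controls, 7 of 8 proximal tubule markers were lower, with a median log2 ratio of -3.96 and a summed signal of 1407 to 1544 in mutants against 18085 to 18442 in controls. Aqp1, at -2.33, lay above that median. Of the thick ascending limb markers 5 of 6 were lower (median -1.84), of the distal and connecting tubule markers 2 of 4 (median -1.15) and of the podocyte markers 1 of 4 (median -0.50). Endothelial markers, a further site of Aqp1, had 0 of 7 called and summed to 4722 to 5547 in mutants against 5597 to 5687 in controls. Of the erythroid markers 0 of 7 were called, with sums of 1396 to 1428 in mutants against 1330 to 1344 in controls. Hba-x, Hbb-y, Hbb-bh1 and Rhag among them were under the minimum on every E18.5 array and could not be called. The count and the sums therefore say little about red blood cells. The parts that tubule, endothelial and red blood cells had in the Aqp1 signal were not tested.

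For the collecting duct genes the markers moved less than Aqp2. Of 6 principal cell markers 1 was lower in E18.5 mutants, Npnt, which encodes the matrix protein nephronectin and was called through a probe set other than its brightest, and their median log2 ratio was -0.34 with summed signals of 5401 to 6344 in mutants and 7761 to 7909 in controls. Scnn1b, a subunit of the epithelial sodium channel, had 494 and 602 in mutants and 721 and 739 in controls, a log2 ratio of -0.41 (-0.58 to -0.26), and Fxyd4, a regulator of the sodium pump in the duct, had 1145 and 1432 in mutants and 904 and 952 in controls, a log2 ratio of 0.47 (0.27 to 0.66). In mutants 3 of the 6 principal cell markers, Scnn1b, Fxyd4 and Npnt, were called higher at E18.5 than at E14.5, as Aqp2 was. Of all named genes 1.35% were called higher in that comparison. The sizes differed, at 2.89, 3.80 and 3.95 times the E14.5 level against 2.16 for Aqp2. Scnn1g, Hsd11b2 and Kcne1 were not called, with log2 ratios of 0.14, -0.07 and -0.06. Of 6 intercalated cell markers 2 were lower in E18.5 mutants, the transcription factor gene Foxi1 by 2.76-fold and the proton pump subunit gene Atp6v1b1 by 4.98-fold, and their median was -0.57 with sums of 2724 to 3689 in mutants and 4116 to 5218 in controls.

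Markers of the whole ureteric bud and duct epithelium had a median log2 ratio of 0.09, with 0 of 9 lower and 1 higher, the receptor kinase gene Ret of the bud tips (again not by its brightest probe set), and summed to 6678 to 7284 in E18.5 mutants and 7098 to 7130 in controls. Hoxb7, their defining transcription factor gene, was under the minimum on all arrays. Markers of urothelium (0 of 6 called), adipocytes (0 of 3), skeletal muscle (0 of 6), adrenal cortex (0 of 5) and lung and gland epithelium (0 of 6) were not called in this comparison, and of pancreas and gut epithelium 1 of 5 was lower, the brush border gene Vil1, which the proximal tubule expresses too. Of these lists Adipoq, Myh8, Cyp11b1, Sftpc, Scgb1a1, Nkx2-1, Amy1 and Fabp2 were under the minimum on all arrays, so they could not be called. How far cell numbers enter the ratios of Aqp2, Aqp3 and Aqp4 was not tested.

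**Figure D3:**
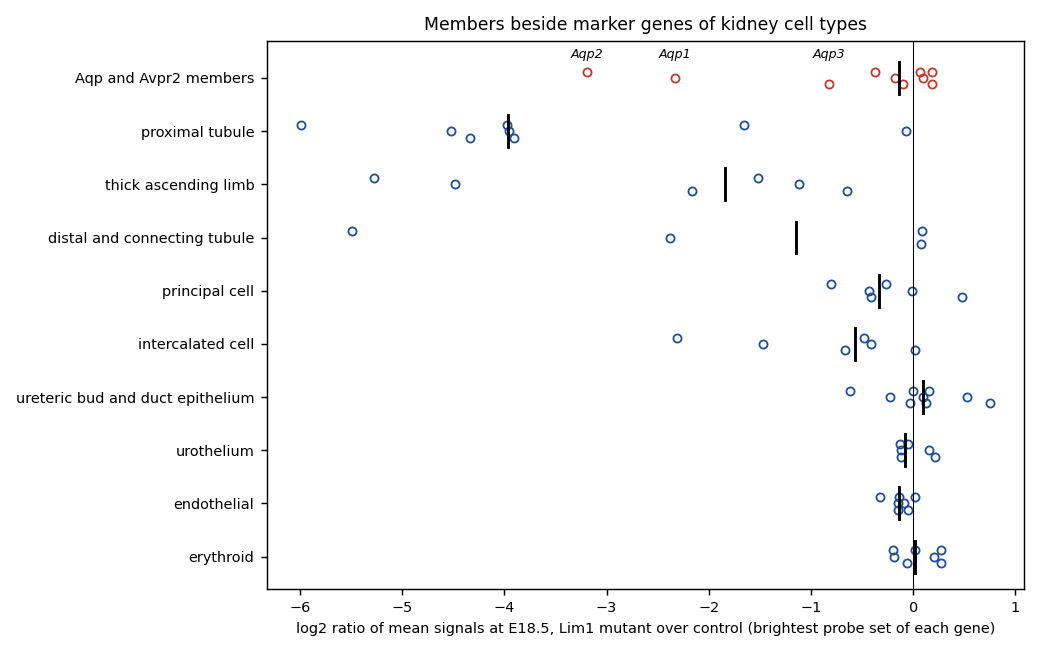
Log2 ratio of mean signals at E18.5, Lim1 mutant over control, for the brightest probe set of each member (red) and of each marker gene (blue); black bars are list medians. Aqp2 (-3.20) and Aqp1 (-2.33) lie to the left of every principal cell marker, while proximal tubule markers have a median of -3.96.

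Genes of vasopressin signalling and urine concentration were examined as a list, of which 23 of 25 were measured. In E18.5 mutants 3 were lower than in controls and 0 higher, and the median log2 ratio was -0.08. Among all named genes 2.23% were called lower and 0.165% higher in this comparison. Slc12a1, the sodium, potassium and chloride cotransporter of the thick ascending limb, had 169 and 153 in mutants and 3687 and 3541 in controls, 22.5-fold lower (21.0 to 24.0). Tfcp2l1, a transcription factor gene of the distal tubule and collecting duct, had 877 and 1052 in mutants and 2139 and 2069 in controls, 2.18-fold lower (1.97 to 2.44). Slc14a1, a urea transporter gene, had 104 and 117 in mutants and 267 and 185 in controls, 2.05-fold lower (1.59 to 2.56). Some pairings of single arrays thus gave less than 2 for both. The genes of the G protein, the adenylyl cyclases, protein kinase A and Creb1, which act between Avpr2 and Aqp2, were not called. Their signals are of whole kidney, so their levels in principal cells were not measured.

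In the other comparisons the list behaved as follows. At E14.5, Slc12a1 was the 1 gene called lower, with 115 and 121 in mutants and 263 and 312 in controls, 2.43-fold lower (2.18 to 2.70). Of all named genes 0.121% were called lower there. From E14.5 to E18.5 in controls 4 genes were called higher and 0 lower, namely Slc12a1 (12.6 times), Tfcp2l1 (4.32 times), Slc14a1 (2.14 times) and Nfat5 (2.11 times), the last a transcription factor gene of the response to hypertonicity that acts on Aqp2. The shares over all named genes were 4.75% higher and 2.94% lower in controls, and 1.35% higher and 1.49% lower in mutants. In mutants Nfat5 was the 1 gene called higher, at 2.02 times (1.71 to 2.36), and Tfcp2l1, with a log2 ratio of 0.997 (0.86 to 1.12), lay just under the ratio of 2.

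Profiles over the 8 arrays were compared by the root mean square difference of log2 signals after centring each gene on its mean, over 13230 genes. The 8 arrays are 4 pools in duplicate, so likeness is a description of 4 points. Nearest to Aqp1 were Ttr at 0.18 log2 units, Car12 at 0.24, Neat1 at 0.25, Pdzk1ip1 at 0.34 and Aqp2 at 0.35. Nearest to Aqp2 were Ttr at 0.22, Gpx3 at 0.28, Anpep at 0.32, Napsa at 0.34 and Aqp1 at 0.35. Aqp1 and Aqp2 were each among the 5 nearest genes of the other, by the same difference read both ways. Only genes at or above the minimum in E18.5 controls were ranked, where both are high, and both were under the minimum at E14.5. Their likeness therefore repeats the ratios given above and is no separate result. Ttr encodes the thyroid hormone carrier transthyretin, and its mean signal was 228 in E18.5 mutants and 1619 in E18.5 controls, 7.10-fold lower. Anpep, an aminopeptidase gene of the proximal tubule brush border, had means of 244 in mutants and 3654 in controls, 15.0-fold lower.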

How the data were processed

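RNA of 4 pools of whole kidneys was hybridized to 8 arrays. The deposited values are linear signal intensities, which the authors computed per probe set in dChip2004 with invariant-set normalization; the labels also describe scaling in Microarray Suite 5.0. Raw probe intensities and present calls were not used here, and a minimum signal (the 40th percentile of each array) stood in for present calls. Of 45101 probe sets, the platform annotation gave 34958 a single gene, 932 several and 9211 none, and 34754 were matched to current symbols by gene identifier. Signals below 1 were set to 1. Each gene was valued by its brightest probe set, and every probe set of a member is reported. From the pathway list, genes meeting the criteria in any comparison were named. Markers and likeness followed set rules, the latter naming the 5 nearest genes among those above the minimum in E18.5 controls. Members and lists were chosen with earlier results of these data known. Alternatives were another percentile or no minimum, quantile and median scaling, geometric means, 50 units added, no duplicate criterion, other uses of probe sets and leaving out each array. The code that applies the criteria was checked on simulated data with known changes. Python 3.11.15, numpy 2.4.6, pandas 2.3.3 and matplotlib 3.10.9 were used.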

Additional observations from a re-analysis of the deposited data

Results flagged for a closer look

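Probe set 1422007_at of Aqp3 had log2 ratios of opposite sign at the 2 ages in every pairing of single arrays. Its log2 ratio of mutant over control was 0.092 (0.022 to 0.16) at E14.5 and -0.83 (-0.88 to -0.77) at E18.5. The E14.5 value lay between the quartiles of all named genes, -0.084 and 0.113, so it was no larger than is common. The other Aqp3 probe sets at E14.5 had -0.46 (1450460_at), -0.17 (1422008_a_at) and 0.06 (1447727_at). The difference between the ages was not tested, since each condition had 1 pool, and neither value met the criteria.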

How the results depend on the processing

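Of 360 log2 ratios of members under the alternatives, 338 moved by less than the spread between duplicates and 22 moved by more (12 toward 0 and 10 away from it or across it, by at most 0.96). Of those 22, 12 came with the mean over probe sets and 6 with 50 units added. No value that was itself called changed sign. In E18.5 mutants over controls, the uncalled value of the brightest Aqp4 probe set, 0.18, became -0.38 with the mean over probe sets. That of Aqp6 went from 0.07 to -0.42. In E18.5 mutants against controls, 4 members were called, and 2, Aqp1 and Aqp2, when the brightest probe set alone was read, while with no minimum signal there were 5, with Aqp6. With 50 units added, 1 member, Aqp1, was called between the ages in mutants, against 3. The same setting put Aqp1 4.58-fold and Aqp2 7.96-fold lower in E18.5 mutants than in controls. The median log2 ratio of the collecting duct genes at E18.5, -0.10, was -0.42 with the mean over probe sets, and ranged from -0.25 without array 1 of the E18.5 mutant pool to 0.047 without array 2 of that pool. That of the nephron forms, -0.27, was -0.43 and -0.13 without the same arrays. At E14.5, 0 members were called under every alternative. No paired analysis was possible because no test was run and array numbers mark target preparations, not shared samples. Low signals of Aqp1 and Aqp2 at E14.5, under the minimum, limit every ratio taken against them.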

Other observations

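Of the other aquaporin genes with probe sets, Aqp12 had signals of 605 to 845 on the 8 arrays, above the minimum on each, with a log2 ratio of -0.19 (-0.48 to 0.10) in E18.5 mutants over controls. Mip and Aqp9 were under the minimum on all arrays. None of these genes was called in any comparison. Avpr1a, the V1a vasopressin receptor gene, was chosen for mention after its values were seen. Its probe set 1418603_at had signals of 67.9 and 68.9 in E18.5 mutants and 158 and 143 in E18.5 controls, 2.20-fold lower (2.08 to 2.33), but was under the minimum on all arrays and not called. Its brighter probe set, 1418604_at, had a log2 ratio of -0.13 (-0.27 to 0.00).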
